A study of Drosophila melanogaster with 24 samples.

Results

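The zinc-finger protein CLAMP was mapped on chromatin with 2 different antibodies in mock-treated Kc167 cells, a Drosophila melanogaster line derived from embryos and kept at 25°C. Both antibodies were raised in rabbit. The first, labelled clamp, came from the supplier sdix. The second, labelled clamp-abcam, was produced with Abcam by a university laboratory. Each antibody has 2 ChIP libraries (chromatin immunoprecipitation with sequencing) and 2 input libraries of its own. The authors deposited 1 pooled peak list per antibody. The labels number the first antibody's ChIP libraries 8 and 33 and those of the second 31 and 32. The labels do not say what mock cells received in place of double-stranded RNA (dsRNA).

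Taking arms 2L, 2R, 3L, 3R, 4 and X, peaks sharing at least 1 base were called shared. The comparison covers 9231 peaks, 5370 of the first antibody and 3861 of the second, out of 25738 in the 6 lists of the series. The other lists are those of the insulator proteins CP190, Su(Hw) and Mod(mdg4) in mock cells and of the second CLAMP antibody after Clamp dsRNA (5 ug, 6 days). Since each list is pooled, there is no error between replicates for any value, and no test between the antibodies was possible. Intervals are 95% Wilson intervals. They cover counting error only, and neighbouring peaks are not independent. Depth is unknown, and ChIP peaks do not measure expression, so the cell type was not checked against marker genes. A peak seen by 1 antibody alone is therefore a peak for which the other list holds none above the authors' threshold.

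CLAMP binds GA-rich repeats throughout the genome and is known for bringing the dosage compensation complex to the X chromosome in males. It is also known to bind the histone gene cluster. Different antibodies to 1 protein can bind different parts of it.

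Most strong CLAMP sites were in both lists, and the lists parted among weak peaks and next to the centromeres. A second-antibody peak lay at 3505 first-antibody peaks (65.3% of 5370, interval 64.0 to 66.5). A first-antibody peak lay at 3100 second-antibody peaks (80.3% of 3861, interval 79.0 to 81.5). The first antibody alone gave 1865 peaks and the second alone gave 761. Joined by overlap, the shared peaks formed 3071 sites. At the edge of the rule, 19 overlapping pairs shared 50 bases or fewer, with median fold enrichments of 2.50 and 2.52 in the first and second list. Just outside it, 13 peaks of the first antibody alone (median 2.08-fold) and 5 of the second alone (median 2.09-fold) lay within 50 bases of a peak in the other list. Few peaks therefore sat at the boundary. The first list's share was 54.0% when summits within 250 bases of each other were asked for in place of overlap.

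Sharing followed the strength of the peak within its own list. Column 7 of the lists is the fold enrichment of ChIP signal over background at the summit. With unknown depth it was ranked within a list and not compared as an amount between lists. Each list was split by fold into 10 bins of nearly equal size. All 537 peaks in the strongest bin of the first list were shared, and 227 of 537 (42.3%, interval 38.2 to 46.5) in the weakest. The rise was not steady, and the lowest share was in the bin next to the weakest, 184 of 537 (34.3%, 30.4 to 38.4). In the second list all peaks of the 3 strongest bins were shared, 385 of 386 in the bin below them, and 192 of 386 (49.7%, interval 44.8 to 54.7) in the weakest. The strongest unshared peak thus stood at percentile 88.7 of the first list and at percentile 61.8 of the second. Without the centromere-proximal parts, the first list's weakest bin had 48.2% shared (interval 43.6 to 52.7), beside 49.3% (44.3 to 54.4) for the second. The curves lay close together in the 4 weakest bins there and apart in the fifth to ninth, and met at 100% in the strongest.

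**Figure D1:**
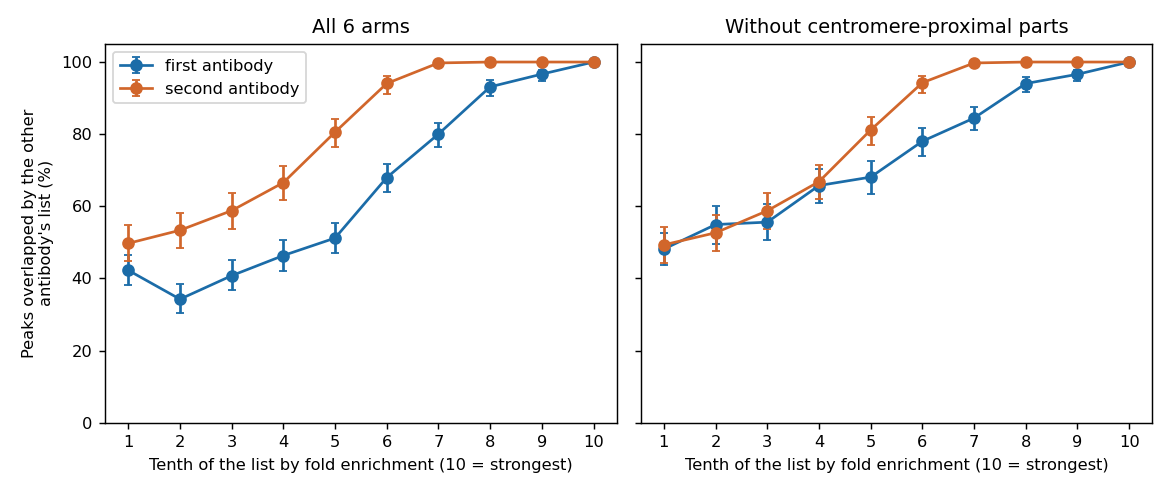
Share of peaks overlapped by the other antibody's list (y axis, percent) for 10 bins of a list by fold enrichment (x axis, 10 is strongest), with 95% Wilson intervals, for all arms (left) and without the centromere-proximal parts (right). The strongest bin is wholly shared in both lists, and the weakest bin of the first list has 42.3% shared on the left and 48.2% on the right. On the left the first list is lowest in bin 2, at 34.3%.

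Several of the strongest sites of both antibodies lay at or in genes of transcription factors. The top site stood at an end of mid, a T-box gene, on 2L (5460679 to 5462018, dm6), with 20.9-fold enrichment in the first list and 28.2-fold in the second. Next came CG13891 on 3L (21.3- and 25.6-fold) and the homeobox gene Vsx1 on X (18.4- and 25.1-fold). A site inside the Hox gene Ubx (17.0- and 25.4-fold) and one inside lncRNA:bxd (17.0- and 26.4-fold) followed. Both lie in the bithorax complex on 3R. The other sites among the 10 with the highest ranks in both lists were nearest to bi (T-box), trh (a tracheal regulator), Prat2 (purine synthesis) and mts (a phosphatase subunit), and inside hth, which encodes a partner of Hox proteins. Their folds ran from 15.4 to 17.7 in the first list and from 22.7 to 24.4 in the second. Of these 10 sites, 7 overlapped CP190, none overlapped Su(Hw) or Mod(mdg4), and 5 overlapped a peak of the second antibody after Clamp dsRNA. Over all shared first-antibody peaks the shares were 57.5% for CP190, 6.13% for Su(Hw), 3.28% for Mod(mdg4) and 2.77% for the dsRNA list. The first 3 counts are thus near what shared peaks have in general.

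At shared sites the antibodies ranked the peaks alike. Over the 3071 sites, each taken by its strongest peak, the percentiles of fold enrichment had a Spearman rho of 0.846. This is a description across sites of 2 lists, and sites are not replicates. The percentiles lay within 10 points of each other at 1769 sites (57.6%). They differed by more than 50 points at 84 sites, and the first antibody ranked higher at 81 of these. A percentile counts all peaks of its list, lone ones included, and the scales were offset. The median percentile of shared sites was 68.1 in the first list and 60.2 in the second. The part of this offset in the 81 was not tested. The widest gap was at CG13917 on 3L (1586288 to 1586952), with 8.55-fold in the first list (percentile 91.4) and 1.98-fold in the second (percentile 6.80). A pair of sites at jim, a zinc-finger gene on 3L, CG13506 and Fkbp14 came next, with percentiles of 77.3 to 81.1 in the first list and 0.764 to 3.74 in the second. In the opposite direction the widest gaps were at CG17233 and at Tom40, the gene of the mitochondrial import channel. Their percentiles were 4.85 and 0.922 in the first list and 73.5 and 58.0 in the second. Stt3A, a gene of protein glycosylation, mir-276a and ko followed, with second-list percentiles of 54.1 to 61.2.

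**Figure D2:**
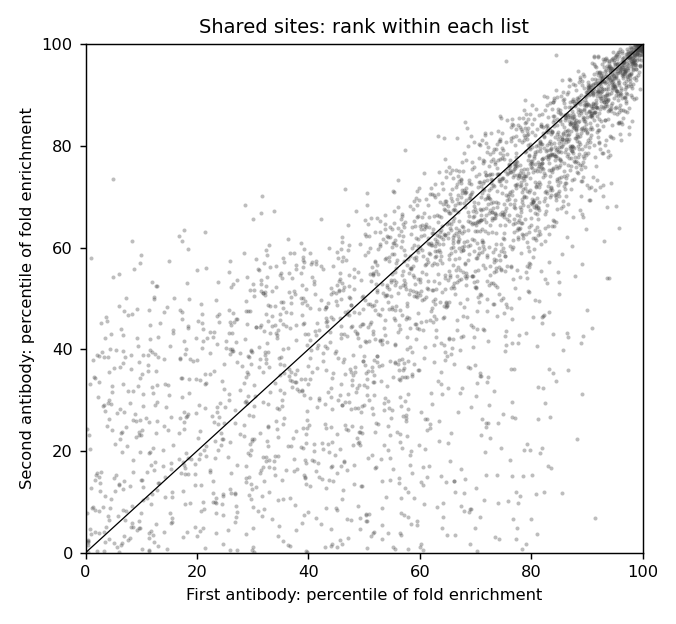
Percentile of fold enrichment in the second list (y axis) against that in the first (x axis) for the 3071 shared sites, 1 point per site, with the line of equal rank. Points crowd towards the line at the top right, and 81 of the 84 sites more than 50 points apart lie below it. The scales are offset, with median percentiles of 68.1 in the first list and 60.2 in the second.

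Summits of the antibodies fell close together, while the second antibody's peaks were wider. The median distance between summits of overlapping peaks was 61 bases (quartiles 24 and 150, 3534 pairs), and 2900 pairs (82.1%) lay within 250 bases. At 220 pairs (6.23%) the summits were over 1000 bases apart. At 2808 of the 3071 sites (91.4%) the second antibody's peak was the wider one, with median widths of 614 bases for the first and 910 for the second. The narrowest peak was 241 bases in the first list and 368 in the second. Wide peaks of the second antibody often spanned several of the first. In all, 380 second-antibody peaks held 2 to 5 first-antibody peaks, whereas 29 first-antibody peaks held 2 of the second. Second-antibody peaks with 5 first-antibody peaks lay at lncRNA:CR44619 on X (6801 bases, 12.3-fold) and in Snap25, a gene of vesicle fusion, on 3L (4650 bases, 5.01-fold). Those with 4 lay in E2f1, Tlk, InR, Lasp, Shawl and ctrip. The count of shared peaks therefore differs by list, 3505 against 3100.

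Peaks of 1 antibody alone had lower median folds and widths than shared peaks. The median fold was 3.91 (quartiles 2.63 and 6.35) for shared first-antibody peaks and 2.37 (2.11 and 2.75) for the first antibody alone. In the second list it was 4.5 (2.87 and 7.87) for shared peaks and 2.36 (2.08 and 2.71) for the second alone. Median widths were 598 and 379 bases in the first list and 903 and 461 in the second. The weak end of each list held both kinds. The lowest shared and lowest lone peaks stood at 1.38- and 1.49-fold in the first list and at 1.57- and 1.49-fold in the second.

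**Figure D3:**
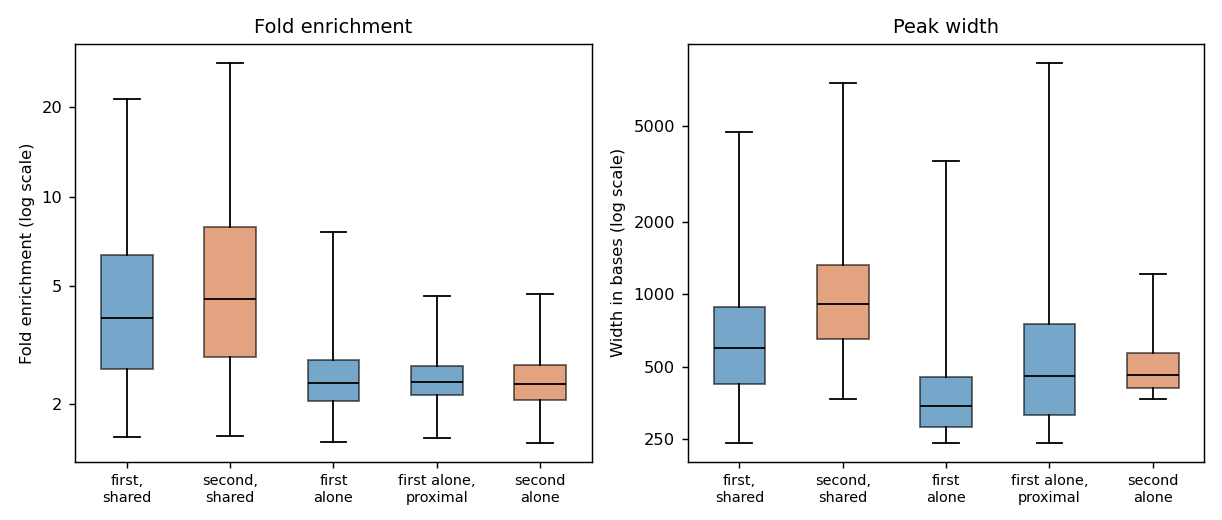
Fold enrichment (left) and width in bases (right), both on log axes, for shared and lone peaks. Boxes span the quartiles with the median, whiskers the full range, and proximal means centromere-proximal, with other boxes outside those parts. Lone peaks reach 7.60-fold in the first list and 4.70-fold in the second.

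Close to the centromeres lay 825 peaks of the first antibody alone (44.2%, interval 42.0 to 46.5). These ends of the arms are rich in repeats and poor in genes. As centromere-proximal were counted summits from 22000 kb on 2L, to 5600 kb on 2R, from 22900 kb on 3L, to 4500 kb on 3R and from 22300 kb on X (dm6). Of the shared first-antibody peaks, 61 (1.74%) lay there, and of the peaks of the second alone, 20 (2.63%). With these limits moved 1 Mb outwards, the shares were 48.2%, 4.42% and 5.65%. With overlap called anew between the stronger 50% of each list, 121 of 748 lone first-antibody peaks were centromere-proximal (16.2%). Those lone peaks include ones whose overlapping peak lay in the weaker 50% of the second list, so this share is not one of the classes above. Arm 3R carried most of the 825 peaks, with 666 of them and 14 shared ones in its first 4.5 Mb. The second list had 16 peaks in that stretch, 14 of them shared. Outside the centromere-proximal parts, 3444 of 4484 first-antibody peaks were shared (76.8%, interval 75.5 to 78.0) and 3047 of 3788 second-antibody peaks (80.4%, 79.1 to 81.7). The difference between the lists was thus smaller there, 76.8% against 80.4% in place of 65.3% against 80.3%.

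**Figure D4:**
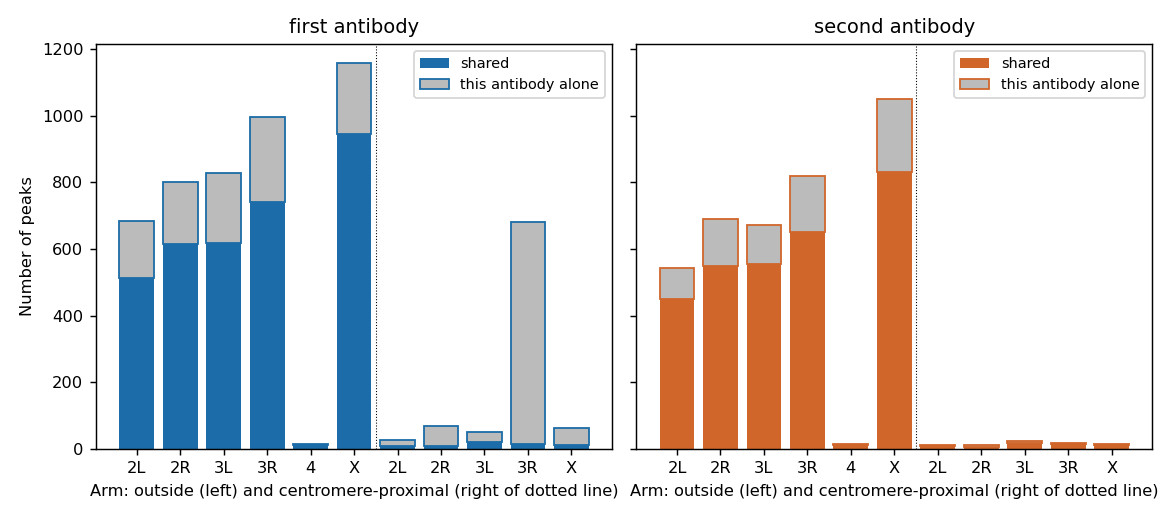
Number of peaks (y axis) on each arm outside the centromere-proximal parts and, right of the dotted line, inside them, for the first (left panel) and second antibody (right panel). Coloured bars are shared peaks and grey bars are peaks of that antibody alone. The tall grey bar is the 666 peaks of the first antibody alone on proximal 3R.

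A handful of very long genes held most of the centromere-proximal peaks of the first antibody alone. Myo81F, a myosin gene spanning 1965857 bases of 3R (567076 to 2532932), held 459 of these 825 summits. That is 24.6% of all 1865 peaks of the first antibody alone, inside and outside the centromere-proximal parts. In the same gene the first antibody had 7 further, shared summits (466 in all) and the second had 8. The neighbouring gene Pzl on 3R held 113 and DIP-lambda on 2R, a gene of the DIP cell-surface family, held 27. Parp1 on 3R, the gene of poly(ADP-ribose) polymerase, held 12. The second list had none in these 3 genes. Peaks were weak throughout, with a median of 2.42-fold and a maximum of 4.57-fold in Myo81F. Most lay far from gene ends: 24 of the 825 (2.91%) had a summit within 500 bases of one, and the median distance was 78615 bases.

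The flamenco locus on X also held peaks of the first antibody and none of the second. lncRNA:flam is a source of small RNAs that silence transposons. Between its start and that of CG40813 (21631891 to 22143058) the first antibody had 39 peaks, all of them unshared (1.99- to 4.90-fold), and the second had none. This stretch lies just outside the limit set for X. Mod(mdg4) had 29 peaks in it, CP190 3 and Su(Hw) 1.

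The same places held peaks of the second antibody in another library set. After Clamp dsRNA, the second antibody's list had 992 peaks in the first 4.5 Mb of 3R and 54 at flamenco. Of the 666 proximal 3R peaks of the first antibody alone, 504 (75.7%, interval 72.3 to 78.8) overlapped a peak of that list. At flamenco 33 of 39 did (84.6%, 70.3 to 92.8), and in the other centromere-proximal parts 74 of 159 (46.5%, 38.96 to 54.3). Everywhere else it was 14 of 1001 (1.40%, 0.835 to 2.33). Of the 761 peaks of the second antibody alone, 1 overlapped that list. The dsRNA libraries carry the numbers 46 and 47. Whether the antibody, the library set or the treatment sets the peaks in these parts cannot be told apart from these lists.

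Mod(mdg4) peaks also stood at first-antibody peaks in these parts. A Mod(mdg4) peak lay at 242 of the 825 centromere-proximal peaks of the first antibody alone (29.3%, interval 26.3 to 32.5), and CP190 at 35 (4.24%). Of the 61 shared first-antibody peaks there, 26 had Mod(mdg4) (42.6%, 31.02 to 55.1) and 32 had CP190 (52.5%, 40.2 to 64.5), so the Mod(mdg4) overlap was not confined to lone peaks. Seen from Mod(mdg4), 360 of its 434 centromere-proximal peaks (82.9%) met the first CLAMP antibody only, and none met the second only. Su(Hw) had 127 such peaks, 71 with the first antibody only and none with the second only. Outside these parts, 88 of 1298 Mod(mdg4) peaks met the first antibody only (6.78%), 31 the second only (2.39%) and 87 both (6.70%). The labels number the Mod(mdg4) libraries 7 and 30, the Su(Hw) libraries 2 and 6 and the CP190 libraries 29 and 34. What these overlaps rest on, the library set included, was not tested.

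Outside the centromere-proximal parts, the share of peaks at gene ends was higher for the first antibody alone than for shared peaks, with intervals that did not overlap. A summit within 500 bases of either end of a gene was found for 501 of 1040 (48.2%, interval 45.1 to 51.2), for 1191 of 3444 shared first-antibody peaks (34.6%, 33 to 36.2) and for 292 of 741 of the second antibody alone (39.4%, 36 to 43). The direction was the same in each of 4 bins of the first list by fold enrichment. From the weakest bin to the strongest, the shares were 50.2%, 44.1%, 47.5% and 68.4% for lone peaks and 39%, 35.2%, 29.7% and 36.1% for shared ones. The strongest bin held only 19 lone peaks. In the second list lone and shared peaks had 44.9% and 47.5% in the weakest bin, 30.7% and 32.3% in the next and 31.8% and 30.95% in the one above, which held 22 lone peaks. The strongest bin held no lone peak. Over all arms the order turned, with 28.2% of the first antibody alone and 34.4% of shared peaks at a gene end, since the class then includes the 825 centromere-proximal peaks. Summits fell inside a gene for 64.2% of the first antibody alone, 77.4% of shared peaks and 73.7% of the second alone.

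The share of peaks with CP190 was lowest for the second antibody alone outside the centromere-proximal parts, and for the first antibody alone over all arms. Outside those parts it was at 57.7% of peaks of the first antibody alone (interval 54.7 to 60.7), 57.6% of shared first-antibody peaks (56.0 to 59.3) and 60.7% of shared second-antibody peaks (59.0 to 62.5). For the second antibody alone it was at 344 of 741 (46.4%, 42.9 to 50.02). Over all arms the order turned, with 34.05% for the first antibody alone (31.9 to 36.2) and 46.5% for the second alone (43.0 to 50.07). Within bins of the first list by fold, lone peaks stood above shared ones in the weaker bins and below them in the stronger. The intervals of lone and shared peaks overlapped in every bin. From the weakest of the first list's 4 bins up, lone peaks had CP190 at 63.3%, 55.6%, 41.7% and 52.6%. Shared peaks had it at 58.0%, 51.2%, 51.7% and 67.2%, and the strongest bin held only 19 lone peaks. Within the 4 bins of the second list, lone peaks had CP190 at 54.9%, 34.1% and 22.7% from the weakest bin up, and shared peaks at 66.9%, 52.4% and 53.7%. The third of these rests on 22 lone peaks, and the strongest bin had none. Lone peaks were also narrower in these bins, with medians of 431, 518 and 592 bases against 538, 683 and 916, which leaves less room for overlap, and the part of width was not tested. Su(Hw) was at 5.26% to 6.92% in all 3 classes, with overlapping intervals. Mod(mdg4) was at 79 of 1040 of the first antibody alone (7.60%, 6.14 to 9.37), 2.58% of shared peaks and 3.10% of the second alone. The flamenco stretch counts here, and 22 of its 39 lone peaks are among the 79.

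The X chromosome carried about 1 in 5 of the first antibody's lone peaks, a share whose interval lay below that of shared peaks. Outside the centromere-proximal parts X held 212 of 1040 (20.4%, interval 18 to 22.94), against 946 of 3444 shared peaks (27.5%, 26 to 28.98) and 220 of 741 of the second alone (29.7%, 26.5 to 33.1). Put by arm, 81.7% of first-antibody peaks on X were shared (79.4 to 83.8), and between 73.3% and 77.0% on the other arms. In the second list X was not apart, with 79.1% shared and the other arms at 76.9% to 83.1%. Median folds on X were 3.36 and 3.67, beside 3.24 and 3.66 over all arms outside these parts. Of the 39 flamenco peaks, all unshared, all lie on X and count among the 212.

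**Figure D5:**
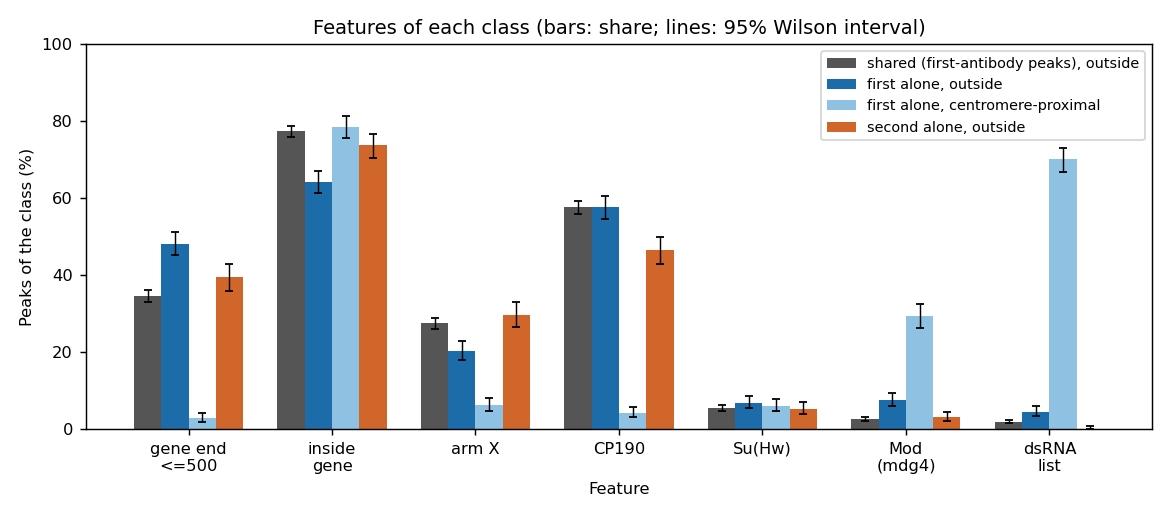
Share of peaks (y axis, percent, with 95% Wilson intervals) that have each feature (x axis): a summit within 500 bases of a gene end, a summit inside a gene, arm X, or overlap with another list. Proximal peaks of the first antibody alone stand low at gene ends and CP190 (2.91% and 4.24%) and high at the list made after Clamp dsRNA (70.1%).

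The 10 strongest peaks of the first antibody alone all lay outside the centromere-proximal parts. The top peak stood at blot, a gene of the neurotransmitter transporter family, on 3L (17421290 to 17421781, 7.60-fold, 50 bases from the gene's end). Ugt302C1, a glycosyltransferase gene, followed with 7.39-fold, then dsx, the sex determination gene, and Mrp4, a transporter gene, with 7.07-fold each. Eps-15 (endocytosis), Msp300 and shot (cytoskeletal linkers), Toll-7 (a Toll-family receptor), CG17834 and Ak3 (adenylate kinase) made up the rest, down to 6.21-fold. Of these 10 peaks, 6 had the summit within 500 bases of a gene end (48.2% over the whole class outside those parts), 5 had CP190, 2 had Su(Hw) (dsx and Mrp4) and 1 had Mod(mdg4) (Mrp4). None lay on X. Over the same class the shares were 57.7% with CP190, 6.92% with Su(Hw), 7.60% with Mod(mdg4) and 20.4% on X, and 10 peaks are too few to set apart from these. Within the centromere-proximal parts the strongest were at MP1, CG1090 and CG12768 (4.59- to 4.64-fold), all with CP190, and then inside Myo81F (4.57- and 4.5-fold), with Mod(mdg4) and dsRNA peaks in place of CP190.

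The strongest peaks of the second antibody alone included both ends of the histone gene cluster. The top peak was at Bin1 on 3R, a gene of a corepressor subunit, inside sra (16189228 to 16189946, 4.70-fold). On 2L, peaks at His1:CG33801 (21416923 to 21417335, 4.40-fold) and His2B:CG33868 (21537352 to 21538004, 4.24-fold) stood near the edges of the replication-dependent histone genes. The first antibody had no peak among these 111 genes, and neither had CP190, Su(Hw), Mod(mdg4) or the list after Clamp dsRNA. The repeats of this cluster are nearly identical, so reads inside it may map to many copies, and its other copies may hold signal that these lists cannot show. The others were at CR41501, CG14441, NijA, CG12374, Drgx (a homeobox gene), Mcm2 (a subunit of the replication helicase) and CG15198, with 4.12- to 4.40-fold. Among the 10, Drgx and Mcm2 had CP190, and Drgx also had Su(Hw) and Mod(mdg4). Over all peaks of the second antibody alone the shares were 46.5% with CP190, 5.12% with Su(Hw) and 3.02% with Mod(mdg4).

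Lone peaks of the second antibody were closer to a peak of the other list than those of the first. The median gap from the peak's edge to the nearest peak of the other antibody was 5386 bases for the second alone and 7568 bases for the first alone, outside the centromere-proximal parts. In those parts it was 231189 bases for the first alone. Within 1000 bases of the other list lay 140 of 741 lone peaks of the second antibody (18.9%) and 160 of 1040 of the first (15.4%). Most lone peaks lay farther than that from the other list. The longer first list leaves shorter gaps for the second antibody's peaks by its number alone.

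Genes were classed by the summits within 500 bases of either end. Of 17684 genes on the arms, 1661 (9.39%) had a shared peak, 689 (3.9%) a peak of the first antibody alone and 453 (2.56%) one of the second alone, while 6 (0.0339%) had separate peaks of each. A gene with any shared peak was counted as shared. Of these 1661 genes, 40 also had a peak of the first antibody alone at an end and 18 one of the second alone. Counted by antibody, 2261 genes (12.8%) had a first-antibody summit and 1913 (10.8%) a second-antibody one. Neighbouring genes can share 1 peak and count separately. The lists below were picked with results of these data known, so their counts are descriptions.

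Most listed genes of transcription factors that pattern the embryo had a shared peak at an end. Of 42 such genes, 33 had one and 9 had no peak of either antibody. Among the 33, tup also had a peak of the first antibody alone at its other end (2.20-fold). Their median folds were 13.0 in the first list and 18.9 in the second, and 18 genes had a peak in the strongest 10% of both lists. The range ran from gsb-n (3.12- and 2.31-fold) and bi (2.76- and 2.96-fold at its ends) to mid. At zfh1, a zinc-finger gene active in hemocytes, the first antibody ranked higher (5.73-fold, percentile 80.6, against 3.61-fold, percentile 49.6). At disco-r the shared peak had its first-antibody summit within 500 bases of the gene's end (10.9-fold) and its second-antibody summit farther off.

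The Hox genes, which set segment identity, gave the same calls with either antibody. A shared peak stood at lab (9.09-fold in the first list and 16-fold in the second), pb (6.56 and 17.4), Dfd (12 and 13.3), Scr (11 and 13.3), Antp (2.31 and 2.32) and abd-A (13.9 and 18.4). Ubx and Abd-B had no peak of either antibody at their ends, though Ubx held the strong internal site named above. At pb the rank differed most among the Hox genes, with percentile 84.5 in the first list and 97.8 in the second.

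Among the 10 genes of dosage compensation, 2 had shared peaks. Clamp itself had 11.5-fold in the first list (percentile 97.1) and 17.7-fold in the second (percentile 98.0). lncRNA:roX2, a non-coding RNA of the dosage compensation complex, had 3.36- and 5.40-fold. Sxl, the switch gene of sex determination, had a peak of the first antibody alone (2.004-fold, percentile 8.85). msl-1, msl-2, msl-3, mle, mof, JIL-1 and lncRNA:roX1 had no peak of either at their ends. A list of 23 insulator and chromatin protein genes had 6 with shared peaks, among them fs(1)h (18.3- and 19.3-fold), pzg (11.1- and 15.5-fold) and su(Hw) (8.44- and 9.59-fold). At psq the shared site at 1 end had 10.7-fold in the first list, with its summit over 500 bases inside the gene, and 13.8-fold in the second. Its other end had a peak of the first antibody alone (2.60-fold). Nup98-96 had a peak of the first antibody alone (2.04-fold) and ZIPIC one of the second alone (2.17-fold).

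Small nuclear RNA genes, which encode the RNAs of the splicing machinery, had peaks of the first antibody alone. Of 32 such genes, 9 (28.1%) had one, none had a shared peak and none had a peak of the second antibody. The strongest were snRNA:U4:39B (3.23-fold), snRNA:U1:95Ca (2.93-fold), snRNA:U1:21D (2.90-fold), snRNA:U11 (2.88-fold) and snRNA:U2:34ABc (2.86-fold), whose peak also serves the neighbouring snRNA:U5:34A. All 9 were of middling or low rank, from percentile 11.9 to 56.5. Some of these genes have near-identical copies, so that reads cannot be placed with certainty. Of 295 transfer RNA genes, 23 (7.80%) had a shared peak, beside 9.39% of all genes. A peak of the first antibody alone stood at 4 (1.36%, beside 3.9% of all genes), with 4.34-fold at tRNA:Glu-TTC-1-5 as the strongest. None had a peak of the second alone.

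Other lists split between the classes. Over all genes the shares were 9.39% with a shared peak, 3.9% with the first antibody alone and 2.56% with the second alone. Of 17 ecdysone response genes, 6 had shared peaks and 4 had peaks of the first antibody alone. These 4 were MsrA (2.97-fold), Hr78 (2.103-fold), Cth (1.90-fold) and usp, the partner of the ecdysone receptor (1.67-fold). Of 21 heat shock genes, 5 had shared peaks, with Hsp68 (11.9- and 12.1-fold) and Hsp27 (9.10- and 13.2-fold) the strongest. Hsc70-3 (2.54-fold), Hsp23 (2.54-fold) and Hsc70-4 (1.83-fold) had peaks of the first antibody alone and Hsp83, a cytosolic chaperone gene, one of the second alone (3.09-fold). Of 92 ribosomal protein genes, 16 had shared peaks, 10 had peaks of the first antibody alone and 7 had peaks of the second alone. Among the lone ones RpL15 (2.92-fold), RpS26 (2.68-fold) and RpL10 (2.53-fold) were seen by the first antibody, and RpL36 (2.66-fold) and RpL35 (2.62-fold) by the second. Of 28 genes in or near heterochromatin, scro, a homeobox gene, had a shared peak (17.4- and 19.2-fold), RpL5 and Tim17b had peaks of the first antibody alone, and Gprk1 and RpL38 had peaks of the second alone. Of the 111 histone genes, 3 (2.70%) lay at the lone second-antibody peaks named above, near the share of all genes (2.56%).

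Counts of shared summits inside single genes, which favour long genes, were led by the following genes. Eip75B, an ecdysone-induced nuclear receptor gene of 113744 bases on 3L, held the most, with 21 shared summits of the first antibody and 20 of the second. A further 5 and 3 summits in it were unshared. ush (a cofactor of GATA factors) held 18 and 15 shared summits and no unshared ones. mam (a Notch coactivator) held 16 and 13. InR, the insulin receptor gene, Mnt and the kinase gene Tlk held 15 each in the first list. Inside these genes the median folds of shared summits were 2.96 to 5.13 in the first list.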

How the data were processed

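ChIP-seq peaks of CLAMP in mock Kc167 cells were compared between antibodies. Reads were handled, per the submitters' processing notes, with cutadapt 1.8.1, SAMtools 1.2, Picard, Bowtie2 2.2.9 and MACS2 2.1.0.20150731 on build dm6. Peak calling options are not stated. Deposited rows are named as pooled and have no header, so libraries were joined before calling. The deposited fold enrichment is a ratio to background. The deposited score is 10 times the -log10 q rounded down, and the deposited -log10 p was not used. The summit is deposited as an offset from the peak start. Depth is unknown.

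Overlap, percentiles, gaps and Wilson intervals were computed in Python 3.11.15 (pandas 2.3.3, scipy 1.17.1), and overlap was tested on simulated data. A percentile is a peak's rank by fold enrichment within its list on the 6 arms. Genes came from a RefSeq table of the same assembly, without strand, exons or sequence, so the planned promoter motif counts were not made and gene ends stand for starts. Members and gene lists were chosen with earlier results of these data known. Named were the 10 sites highest in both lists, the 10 strongest lone peaks of each list in all and outside the centromere-proximal parts, the 5 widest rank differences each way, all Hox and dosage compensation genes, and up to 5 lone members of other lists. Other named peaks and genes were chosen after their values were seen. Alternatives changed the overlap, threshold, list length, limits and distances.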

Additional observations from a re-analysis of the deposited data

Results flagged for a closer look

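Peaks on the Y chromosome, the mitochondrial genome and unplaced sequences were not used in the comparison, though both lists held some. The first antibody had 264 such peaks, 252 of them on unplaced sequences and 7 on Y. The second antibody had 31, with 26 on unplaced sequences and 2 on Y.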

How the results depend on the processing

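Under the alternatives, 54 values moved out of the 95% counting interval of the reported value and 40 did not. Asking for 50% of the shorter peak gave 63.8% of first-antibody peaks shared. Summits within 250 bases gave 54.0% and 75.1% for the first and second list, a shared median of 4.18-fold, and for the first antibody alone 34.1% centromere-proximal, 17.4% on X, 40.3% with CP190, 13.8% with Mod(mdg4), 2.43-fold and 414 bases. For the second alone it gave 53.1% with CP190 and 488 bases. The stronger 50% of each list gave 72.1% and 91.6% shared and a median summit distance of 42 bases. Overlap was called anew between these shortened lists. Lone peaks there include peaks whose partner lay in the weaker 50% of the other list, so they are not the lone classes reported above. Shared peaks there had 1.29% centromere-proximal, 32.2% at gene ends, 59.3% with CP190, 5.84-fold and 766 bases. The first antibody alone had 16.2% centromere-proximal, 21.1% on X, 36.9% at gene ends, 45.2% with CP190, 8.56% with Su(Hw), 14.3% with Mod(mdg4), 3.47-fold and 555 bases. The second alone had 1.23% centromere-proximal, 35.6% at gene ends, 1.84% with Mod(mdg4), 4.04-fold and 767 bases. It held 163 peaks under this setting. In the full second list, bins 6 and 7 by fold held 23 and 1 lone peaks and the stronger bins none, so most of the 163 are shared in the full lists.

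The first list shortened to the size of the second gave 76.0% and 69.4% shared, and a -log10 q of at least 5 gave 69.2% of the first list. Without the centromere-proximal parts, 76.8% of the first list was shared, shared peaks had 2.58% with Mod(mdg4), and the first antibody alone had 20.4% on X, 48.2% at gene ends, 57.7% with CP190, 7.60% with Mod(mdg4) and 344 bases. Peaks set to 500 bases around the summit, chosen after seeing the data, gave 57.1% and 78.7%. Limits moved by 1 Mb gave centromere-proximal shares of 4.42% for shared peaks, 48.2% for the first alone and 5.65% for the second alone. Gene-end shares in that order were 21.0%, 23.1% and 25.9% within 200 bases and 47.1%, 33.5% and 47.6% within 1000 bases. The cause was not tested where the setting does not itself fix the value.

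No paired analysis was possible because the groups share no replicate numbers and each list is pooled, which also kept single libraries from being left out. Promoter motif counts were not run. Unknown depth limits any statement on peaks absent from a list.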

Other observations

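Gene classes by type of gene followed the same order in most types. Of 13922 protein-coding genes, 10.0% had a shared peak at an end, 4.34% a peak of the first antibody alone and 2.98% one of the second alone. Of 1959 lncRNA genes the shares were 7.71%, 2.14% and 0.766%, and of 503 antisense RNA genes 9.94%, 2.39% and 2.19%. For 269 snoRNA genes they were close to each other, at 2.97%, 3.35% and 2.23%. None of 98 rRNA genes had a peak of either antibody at an end.

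Peaks of the second antibody alone were scattered over genes. The most inside 1 gene were 4, in the kinase gene Raf and in mgl, an LDL-receptor family gene, both on X. In Raf they had 1.64- to 3.50-fold enrichment beside 10 shared summits of the same antibody.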
